A study of Caenorhabditis elegans with 9 samples.

Results

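Of the 15913 piRNA entries counted in these small RNA libraries of Caenorhabditis elegans, 4 are described here, cel-piR-14240, cel-piR-1592, cel-piR-12706 and cel-piR-156. They were chosen by name from their sense levels in animals whose prg-1 lacks the PAZ domain, as entries that were as high there as in wild type or higher while most abundant piRNAs were far lower. The sense values of PAZ-deletion against the other genotypes therefore chose them, and those values are given as a description with no test. A count filter asked for 10 or more sense reads over all libraries, with reads in 3 or more of them. It left 1067 of the 5252 entries with any sense read, and all 4 entries passed it. The entries carry no sequence or coordinates in the tables, so they are identified by their piRNAdb names alone.

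Small RNAs of whole adult hermaphrodites were sequenced from 3 genotypes, prg-1(∆PAZ-domain), prg-1(Rnase-dead) and wild type, with 3 libraries each. The labels name no allele and do not say how either mutation was made. Each library came from 20 to 30 pooled adults, grown at 25 °C and taken 24 h past mid-L4, the last larval stage, and all groups shared these conditions. The growth text also uses the word male, and the titles, which say hermaphrodite, were followed. Nothing in the labels says that the libraries came from separate cultures, so the p-values rest on a spread between libraries that may be technical. Small RNA counts do not show the prg-1 transcript, so the genotypes were not checked against it.

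In C. elegans, piRNAs are short RNAs made in the germ line, each from its own small gene, and bound by PRG-1, the Piwi-clade Argonaute of this species. The loaded PRG-1 pairs with transcripts and recruits the machinery that makes secondary siRNAs, which silence those transcripts. In an Argonaute the PAZ domain anchors the guide RNA by its 3′ end, and the PIWI domain has the RNase fold that can cut the paired target. Loss of PRG-1 is known to deplete piRNAs. In whole animals, fewer germ cells and less piRNA per germ cell cannot be told apart.

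Genome-mapped reads numbered 1022428 to 3121968 per library, and levels are given as sense reads per 1000000 of these (RPM). A floor of 3 reads stood for 0.961 to 2.93 RPM, which covers counting error only. The total of sense piRNA reads was 1676 to 1960 RPM in PAZ-deletion, 5653 to 6663 RPM in RNase-dead and 3285 to 5930 RPM in wild type. The last segment of chromosome I, where 4 ribosomal RNA genes are annotated, took 4.07 to 5.56% of genome-mapped reads in PAZ-deletion, 1.64 to 2.62% in RNase-dead and 3.83 to 14.3% in wild type.

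The entry with the largest excess in PAZ-deletion was cel-piR-14240, a scarce piRNA in the other genotypes. It was counted 146, 180 and 98 times in the PAZ-deletion libraries, 9, 8 and 13 times in RNase-dead and 7, 1 and 8 times in wild type. In RPM these were 142.8, 85.1 and 58.1 in PAZ-deletion, 2.88, 3.77 and 5.59 in RNase-dead and 2.89, 0.640 and 2.74 in wild type. Every PAZ-deletion library lay above every other library, and RNase-dead overlapped wild type. The mean was 95.3 ± 43.3 RPM in PAZ-deletion, 4.08 ± 1.38 in RNase-dead and 2.09 ± 1.26 in wild type (mean ± SD, n = 3 each). The PAZ-deletion mean was 45.6 times the wild-type mean and 23.4 times the RNase-dead mean. Both of these ratios rest on few reads, 16 over the 3 wild-type libraries and 30 over the 3 RNase-dead libraries. The wild-type counts of 7, 1 and 8 lay closest to the floor of 3 reads.

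Ranked by reads within a library, cel-piR-14240 stood first, first and second among all piRNAs in the PAZ-deletion libraries. It stood at places 316, 207 and 160 in RNase-dead and 291, 561 and 240 in wild type. By its fitted log2 fold change against wild type, 5.36, it was number 1 of the 1067 entries, and against RNase-dead, at 4.54, it was number 4. Its own spread in PAZ-deletion was wide, since an SD of 43.3 RPM compares with 7.74 RPM that counting alone would give, a ratio of 5.60. The highest value came from PAZ-deletion replicate 1, the shallowest library of the 9, and the lowest from replicate 3.

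The next entry, cel-piR-1592, had the second highest ratio to wild type of the 4 and ranked 52 by its wild-type mean among the tested entries. It reached 36.2, 21.7 and 30.8 RPM in PAZ-deletion, 6.41, 11.8 and 9.46 in RNase-dead and 9.90, 10.9 and 14.7 in wild type. The PAZ-deletion values again lay above all the others, and the RNase-dead values overlapped wild type. The means were 29.6 ± 7.30 RPM in PAZ-deletion, 9.21 ± 2.69 in RNase-dead and 11.8 ± 2.55 in wild type (mean ± SD, n = 3 each). PAZ-deletion was thus at 2.50 times wild type and 3.21 times RNase-dead. Its place by reads was 4, 9 and 6 in the PAZ-deletion libraries, against 149, 76 and 97 in RNase-dead and 88, 34 and 42 in wild type.

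Unlike these, cel-piR-12706 was abundant in every genotype. It was at 54.8, 76.6 and 85.3 RPM in PAZ-deletion, 41.6, 32.5 and 33.5 in RNase-dead and 69.7, 42.9 and 54.4 in wild type. PAZ-deletion overlapped wild type and lay above all RNase-dead libraries, and RNase-dead lay below all wild-type libraries, the closest pair being 41.6 RPM in RNase-dead replicate 1 and 42.9 RPM in wild type replicate 2. The means were 72.2 ± 15.7 RPM in PAZ-deletion, 35.9 ± 5.01 in RNase-dead and 55.7 ± 13.4 in wild type (mean ± SD, n = 3 each). The PAZ-deletion mean was 1.30 times the wild-type mean and 2.01 times the RNase-dead mean. This entry held places 3, 2 and 1 in PAZ-deletion, 20, 22 and 26 in RNase-dead and 7, 5 and 7 in wild type.

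The remaining entry, cel-piR-156, varied more among wild-type libraries than among those of the other genotypes. It was at 63.6, 43.96 and 53.9 RPM in PAZ-deletion, 23.7, 42.9 and 42.6 in RNase-dead and 16.5, 28.2 and 42.8 in wild type. The lowest PAZ-deletion value, 43.96 RPM, was only just above the highest values of RNase-dead and of wild type, so PAZ-deletion did not overlap them but nearly touched both. The means were 53.8 ± 9.81 RPM in PAZ-deletion, 36.4 ± 10.98 in RNase-dead and 29.2 ± 13.2 in wild type (mean ± SD, n = 3 each). The PAZ-deletion mean was 1.85 times wild type and 1.48 times RNase-dead. The wild-type SD of 13.2 RPM was 3.51 times the 3.75 RPM that counting alone would give. Its places were 2, 3 and 3 in PAZ-deletion, 41, 13 and 18 in RNase-dead and 47, 11 and 10 in wild type.

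**Figure D1:**
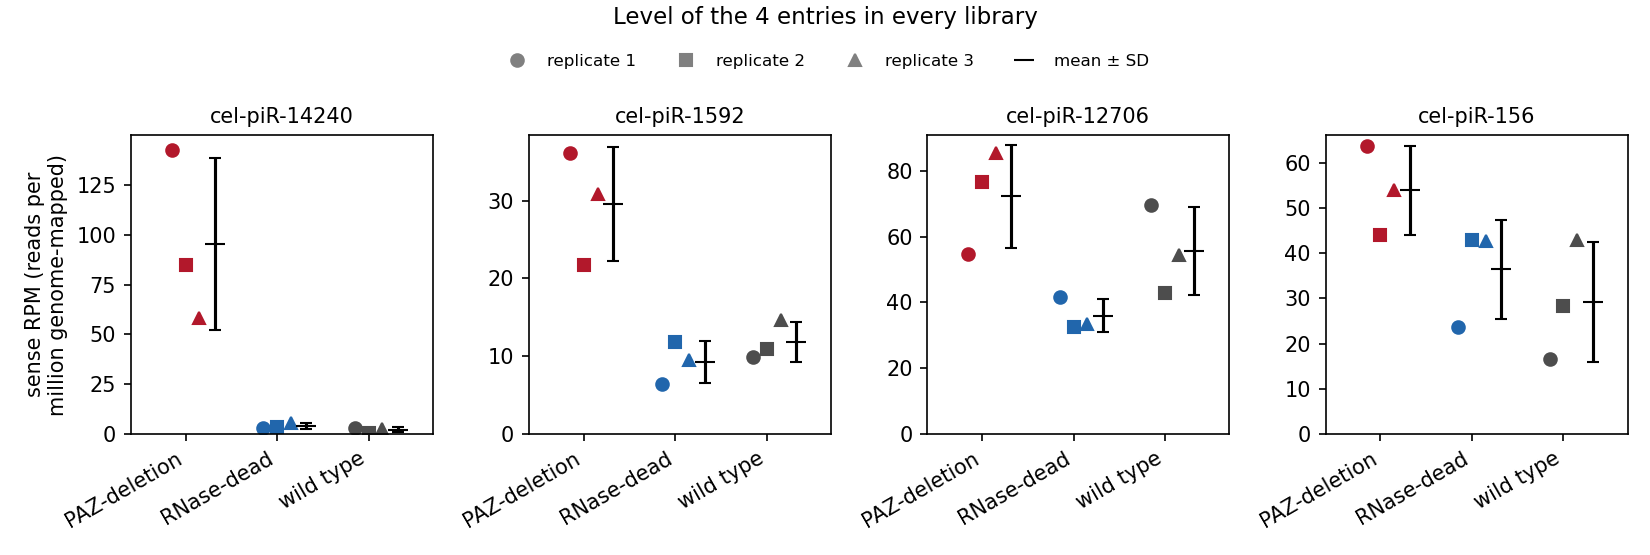
Sense RPM of the 4 entries in each library (points, with shapes for the replicate number) and the mean ± SD of 3 libraries (black), with a separate linear axis from 0 for each entry. All PAZ-deletion libraries lie above the others for cel-piR-14240, cel-piR-1592 and cel-piR-156, while cel-piR-12706 overlaps wild type.

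The 3 PAZ-deletion libraries did not order the entries alike. Replicate 1 had the highest level of cel-piR-14240, cel-piR-1592 and cel-piR-156 and the lowest of cel-piR-12706. The ratio of cel-piR-14240 to cel-piR-12706 reads was 2.61, 1.11 and 0.681 in PAZ-deletion replicates 1, 2 and 3, 0.0692 to 0.167 in RNase-dead and 0.0149 to 0.0503 in wild type. The ratio of cel-piR-156 to cel-piR-12706 reads was 1.16, 0.574 and 0.632 in PAZ-deletion, 0.569, 1.32 and 1.27 in RNase-dead and 0.237, 0.657 and 0.786 in wild type, so it overlapped between genotypes. These ratios need no library total, since both entries were counted in the same library.

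Set against all tested piRNAs, the RPM groups of 3 of the 4 entries were higher in PAZ-deletion, with no overlap with wild type, where 3.84% of the 1067 tested entries had that pattern and 27.2% had the opposite one. Against RNase-dead, all 4 were higher without overlap, again beside 3.84% of tested entries, with 43.2% lower. These comparisons chose the entries, so nothing is read from the counts. The median log2 fold change of the 4 was 1.08 for PAZ-deletion against wild type and 1.34 against RNase-dead, beside -1.25 against wild type and -1.69 against RNase-dead over all tested entries. Against wild type, 219 tested entries were at 0 in a group. With that group put at the floor of 3 reads, and without 40 entries at or under the floor in both groups, the median over all entries was -0.90. Against RNase-dead, with 210 such entries at the floor and 7 left out, it was -1.11. By fitted log2 fold change against wild type, cel-piR-1592 was number 65, cel-piR-156 number 103 and cel-piR-12706 number 193 of 1067, so many scarcer entries stood above them.

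The 4 entries were not alone in this among piRNAs with many reads. Of the 47 entries with at least 286 sense reads over all libraries, the number of the least counted of the 4, 8 had a mean in PAZ-deletion above that of wild type. This total includes PAZ-deletion reads, and cel-piR-14240 reached it through that group, with 424 of its 470 reads there. The 4 entries are among the 8 by choice, so nothing is read from that count. The other 4 of the 8, named after their values were seen, were cel-piR-15149, cel-piR-11525, cel-piR-8748 and cel-piR-1430. The highest ratio among them was that of cel-piR-15149, at 26.2 ± 4.83 RPM in PAZ-deletion, 16.1 ± 1.76 in RNase-dead and 14.5 ± 3.11 in wild type (mean ± SD, n = 3 each), 1.80 times wild type. The lowest was that of cel-piR-1430, at 25.1 ± 8.82 RPM in PAZ-deletion against 23.2 ± 15.2 in wild type (mean ± SD, n = 3 each). In PAZ-deletion the median of the 47 stood at 12.7% of wild type. The PAZ-deletion libraries held 1714 to 3920 sense reads each, against 5129 to 20802 in the other libraries. Entries high in RNase-dead or wild type thus passed the cut on total reads more easily, so nothing is read from this median.

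The 3 most abundant piRNAs of wild type show the contrast in rank. In PAZ-deletion cel-piR-10036 averaged 11.2 ± 6.52 RPM (SD, n = 3), cel-piR-2077 averaged 13.1 ± 5.27 RPM, and cel-piR-6101 was at 5.87, 14.7 and 9.48 RPM, all below the 29.6 RPM of cel-piR-1592. There cel-piR-10036 held places 11 to 47, cel-piR-6101 places 12 to 27 and cel-piR-2077 places 12 to 19. In every RNase-dead and wild-type library they held places 1, 2 and 3, and no member of the 4 stood above place 13 in RNase-dead or above place 5 in wild type. The PAZ-deletion mean of cel-piR-10036 was 2.28% of its wild-type mean.

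**Figure D2:**
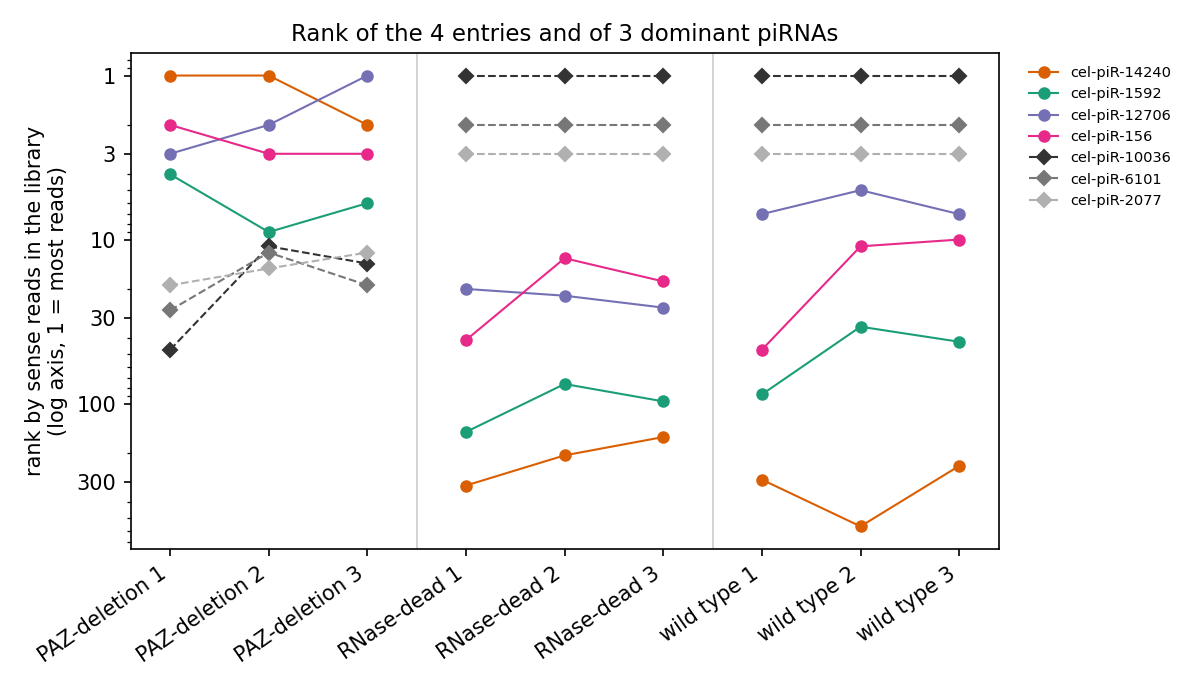
Rank by sense reads within each library (log axis, 1 at the top) of the 4 entries (solid lines) and of cel-piR-10036, cel-piR-6101 and cel-piR-2077 (dashed lines), with lines joining replicates of a genotype only to guide the eye. The 4 entries hold places 1 to 9 in PAZ-deletion libraries, where the 3 dominant piRNAs hold places 11 to 47.

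The entries next above and next below each of the 4 in wild-type level were compared, although next in order is not always close in level. Beside cel-piR-12706 in wild type, at 55.7 RPM, the next entry above was cel-piR-7578, with 2.83 ± 1.01 RPM in PAZ-deletion against 82.0 ± 9.11 in wild type. The next below was cel-piR-6252, with 4.94 ± 0.235 RPM in PAZ-deletion against 51.5 ± 11.9 in wild type. Their PAZ-deletion means were more than 10 times below their wild-type means, while that of cel-piR-12706 was above its own. Beside cel-piR-156 stood cel-piR-9221, at 22.98 ± 11.5 RPM in PAZ-deletion against 29.9 ± 14.3 in wild type, and cel-piR-1215, at 13.5 ± 6.86 RPM in PAZ-deletion against 27.7 ± 2.90 in wild type. Beside cel-piR-1592 stood cel-piR-6357, at 7.81 ± 3.61 RPM in PAZ-deletion against 12.2 ± 4.03 in wild type, and cel-piR-13885, at 0.641 ± 0.556 RPM in PAZ-deletion against 11.6 ± 1.08 in wild type (SD, n = 3 each throughout). Near cel-piR-14240, cel-piR-9111 had no read in PAZ-deletion and 13 in wild type, and cel-piR-13255 had 4 reads in PAZ-deletion and 14 in wild type. All 8 neighbours thus had a lower mean in PAZ-deletion, at 77.0% of wild type or less, and their difference from the 4 entries was not tested. Being lower was usual, as the median log2 fold change over all tested entries was -1.25. The 4 entries were chosen as exceptions to it, so nothing is read from the count of neighbours.

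**Figure D3:**
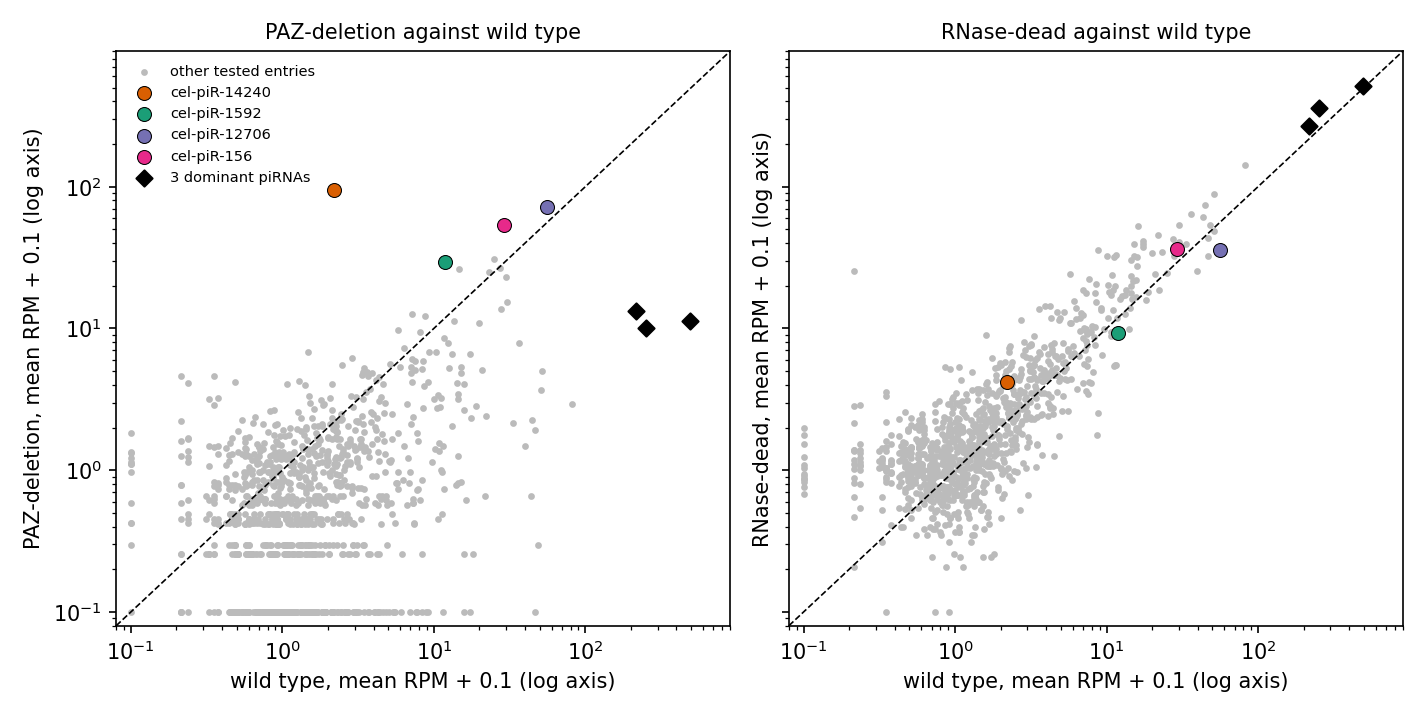
Mean RPM + 0.1 of all 1067 tested entries in PAZ-deletion (left) and RNase-dead (right) against wild type, on log axes, with the 4 entries in colour, the 3 dominant piRNAs as black diamonds and the line of equal levels dashed. The 4 entries lie above the line in PAZ-deletion, while in RNase-dead cel-piR-14240 and cel-piR-156 lie above it and cel-piR-1592 and cel-piR-12706 below.

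As a share of all sense piRNA reads in a library, the 4 entries together weighed more in PAZ-deletion. They held 17.7, 12.3 and 11.6% in the PAZ-deletion libraries, 1.12, 1.61 and 1.49% in RNase-dead and 1.67, 2.52 and 2.37% in wild type. PAZ-deletion lay far above both other groups, and RNase-dead lay below all of wild type, at 13.9 ± 3.35% in PAZ-deletion, 1.41 ± 0.255% in RNase-dead and 2.18 ± 0.452% in wild type (mean ± SD, n = 3 each). The 3 dominant piRNAs held 1.85 ± 0.706% in PAZ-deletion, 18.6 ± 0.479% in RNase-dead and 20.8 ± 2.25% in wild type. No test is given for the sum, because the entries were picked with these results known.

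**Figure D4:**
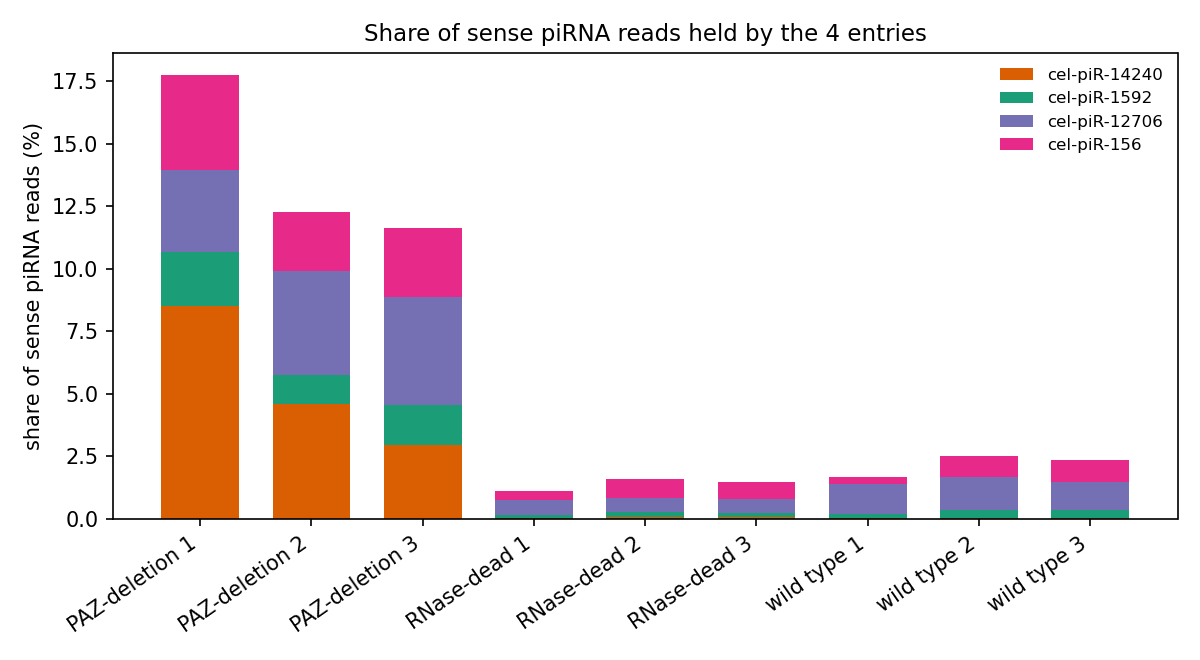
Share of each library's sense piRNA reads (%, bars from 0) held by the 4 entries, stacked. The stacks reach 11.6 to 17.7% in PAZ-deletion, 1.12 to 1.61% in RNase-dead and 1.67 to 2.52% in wild type, and cel-piR-14240 gives 48.0% of the stack in PAZ-deletion replicate 1.

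A share rises when other piRNAs fall, so both scales are set side by side. In RPM the 4 entries summed to 251 ± 40.2 in PAZ-deletion, 85.6 ± 9.47 in RNase-dead and 98.8 ± 16.03 in wild type (mean ± SD, n = 3 each), and the PAZ-deletion sum was 2.54 times wild type in RPM but 6.36 times as a share. All other sense piRNA reads summed to 1579 ± 181 RPM in PAZ-deletion, 6058 ± 514 in RNase-dead and 4586 ± 1320 in wild type. Without the 4 entries, PAZ-deletion was thus at 34.4% of wild type, against 39.1% with them. Within PAZ-deletion libraries cel-piR-14240 made up 48.0, 37.4 and 25.5% of the reads of the 4 entries, against 3.86 to 6.13% in RNase-dead and 0.775 to 2.92% in wild type.

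By single entry the share of cel-piR-14240 was 8.52, 4.59 and 2.96% in PAZ-deletion, 0.0433 to 0.0914% in RNase-dead and 0.0195 to 0.0566% in wild type. For cel-piR-12706 it was 3.27, 4.13 and 4.35% in PAZ-deletion, 0.625, 0.575 and 0.549% in RNase-dead and 1.18, 1.31 and 1.12% in wild type. On this scale cel-piR-12706 no longer overlapped between PAZ-deletion and wild type, and it was steadier within a genotype than in RPM. For cel-piR-1592 the share averaged 1.64 ± 0.496% in PAZ-deletion, 0.153 ± 0.0561% in RNase-dead and 0.268 ± 0.0882% in wild type (mean ± SD, n = 3 each). For cel-piR-156 it averaged 2.97 ± 0.735% in PAZ-deletion, 0.603 ± 0.217% in RNase-dead and 0.673 ± 0.342% in wild type (mean ± SD, n = 3 each). As shares all 4 were higher in PAZ-deletion without overlap against wild type and against RNase-dead, as were 12.7% of tested entries against wild type and 14.7% against RNase-dead. In RNase-dead the share of cel-piR-12706 lay below all of wild type, as it did for 6.56% of tested entries, and the shares of the other 3 overlapped wild type.

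RNase-dead against wild type was not the comparison that chose the entries, but their levels in both of these genotypes entered the choice. The p-values of the 4 entries are therefore not independent of that choice. For this comparison edgeR's quasi-likelihood test over all 1067 entries was applied. With genome-mapped library sizes edgeR called none of the 4 at a false discovery rate (FDR) under 0.05, and 0 had an unadjusted p under 0.05, beside 12.3% of tested entries. Over all tested entries 2.16% were called in this comparison, a count of 23 (22 higher and 1 lower). That count was 4, 8 and 2 without RNase-dead replicate 1, 2 or 3 and 46, 9 and 6 without wild type replicate 1, 2 or 3. The log2 fold change was -0.63 ± 0.35 for cel-piR-12706 (SE, edgeR FDR 0.465), whose RNase-dead libraries lay below all wild-type libraries, as did those of 2.62% of tested entries. It was -0.39 ± 0.43 for cel-piR-1592 (edgeR FDR 0.798), lower in the mean but with overlap. It was 0.82 ± 0.54 for cel-piR-14240 (edgeR FDR 0.580) with overlap. It was 0.31 ± 0.36 for cel-piR-156 (edgeR FDR 0.811) with overlap, and it turned to -0.14 with sense piRNA reads as the library size. The median of the 4 was -0.04, beside 0.32 over all tested entries. The intervals of the log2 fold change (95%, normal, from the SE) ran from -0.23 to 1.87 for cel-piR-14240, from -1.22 to 0.45 for cel-piR-1592, from -0.40 to 1.01 for cel-piR-156 and from -1.31 to 0.05 for cel-piR-12706. Changes of about 2-fold in at least 1 direction lie inside each of them.

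The result for cel-piR-12706 depended on what the libraries were scaled to. With library sizes from sense piRNA reads its log2 fold change in RNase-dead was -1.03 (edgeR FDR 0.0144), and with DESeq2 median-ratio factors -1.08 (DESeq2 FDR 1.95e-04). With the sense piRNA sizes 0.656% of tested entries were called lower (7, cel-piR-12706 among them, with 10 higher). With the median-ratio factors 0.0937% were called lower, which is 1 entry, cel-piR-12706 itself. With both scalings 1 of the 4 was called and 2 of the 4, cel-piR-12706 and cel-piR-1592, were lower at an unadjusted p under 0.05, as were 5.53% of tested entries with the sense piRNA sizes and 2.81% with the median-ratio factors. Genome-mapped factors in DESeq2 gave 0 calls among the 4 beside 2.16% of tested entries, and 1 of the 4, cel-piR-12706, was lower at an unadjusted p under 0.05, beside 0.656%. TMM factors in edgeR gave 0 calls as well, beside 1.22%, with cel-piR-12706 at -0.94 (edgeR FDR 0.0761) and again the 1 lower at an unadjusted p under 0.05, beside 4.69%. Leaving the ribosomal segment out of the library size gave -0.76 for cel-piR-12706 (edgeR unadjusted p 0.026, FDR 0.349). The median over all tested entries was 0.32 with genome-mapped reads and -0.03 with sense piRNA reads, and the fold change of cel-piR-12706 minus that median was -0.955 with genome-mapped and -1.005 with sense piRNA reads.

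**Figure D5:**
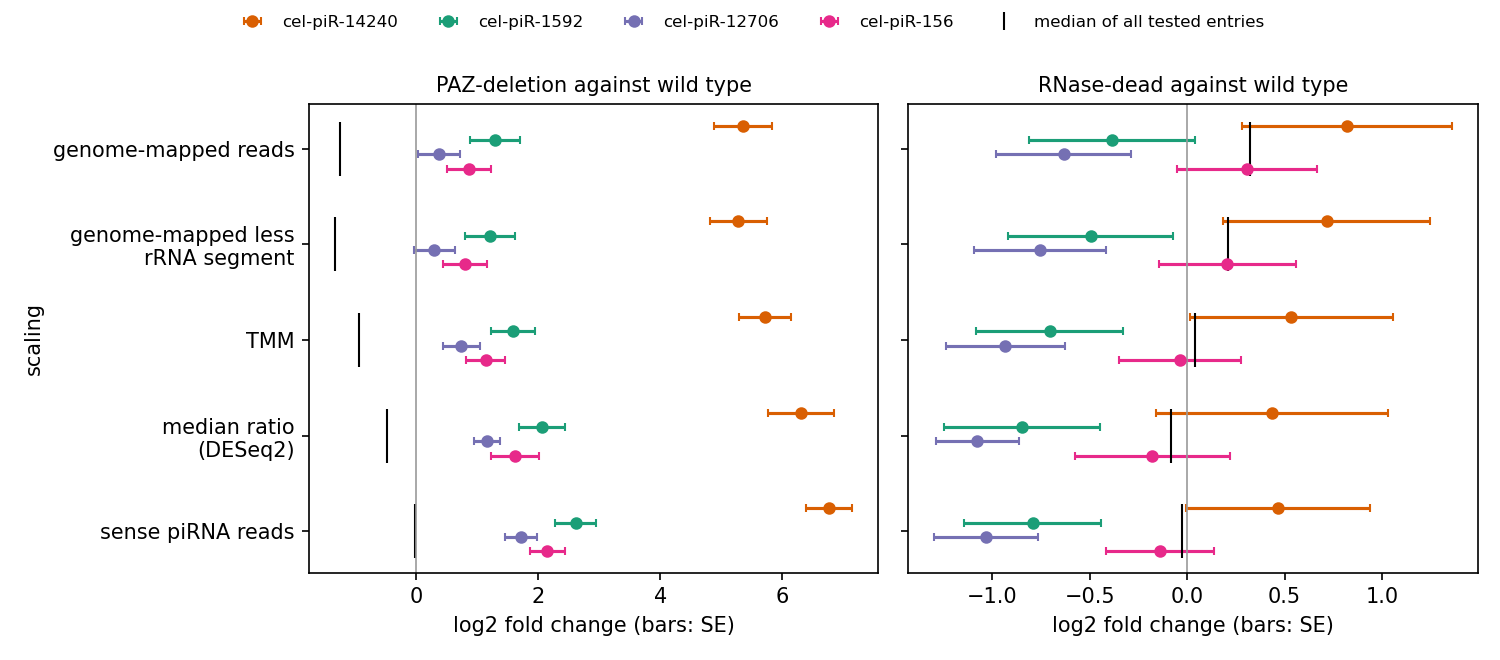
Log2 fold change (points, with SE as bars) of the 4 entries under 5 scalings, for PAZ-deletion against wild type (left) and RNase-dead against wild type (right), with the median of all tested entries as a black tick and separate axes. The right panel shows cel-piR-12706 between -0.63 and -1.08, always below the median of all entries.

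Under the same 5 scalings the 4 entries stayed above 0 in PAZ-deletion against wild type. That comparison chose the entries, so nothing is read from this. Scaling to sense piRNA reads also raises PAZ-deletion levels, since the sense piRNA total there was 39.1% of wild type. With sense piRNA reads as the library size the log2 fold changes were 6.78 for cel-piR-14240, 2.62 for cel-piR-1592, 2.15 for cel-piR-156 and 1.72 for cel-piR-12706, while the median over all tested entries was -0.02 in place of -1.25. Leaving out 1 library at a time, with genome-mapped reads, the log2 fold changes lay between 4.96 and 5.62 for cel-piR-14240, 1.13 and 1.49 for cel-piR-1592, 0.57 and 1.28 for cel-piR-156, and 0.23 and 0.57 for cel-piR-12706.

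Antisense reads were not used to choose the entries. Over all 9 libraries the 4 entries had 2 antisense reads beside 2512 sense reads, and both were on cel-piR-156 in wild type replicate 1. No antisense read was counted for cel-piR-14240 beside 424 sense reads in PAZ-deletion, which allows a share of up to 0.708% by the floor of 3 reads. The limits were 2.22% for cel-piR-1592, 0.829% for cel-piR-12706 and 1.20% for cel-piR-156 in PAZ-deletion. Over all piRNAdb entries antisense reads made up 16.1 to 19.2% of piRNA reads in PAZ-deletion, 7.17 to 8.34% in RNase-dead and 8.56 to 11% in wild type. This share rises when sense reads fall, so it does not show more antisense reads in PAZ-deletion. Lacking antisense reads was common among piRNAs with many sense reads, as 43 of the 47 above had none. No member was among the 127 entries with enough antisense reads to test, of which edgeR called 17.3% in PAZ-deletion against wild type, 20.5% in PAZ-deletion against RNase-dead and 0.787% in RNase-dead against wild type. With genome-mapped library sizes the median antisense log2 fold change of the 127 was -0.57, -0.80 and 0.24 in these 3 comparisons.

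The entries most like each of the 4 were found by Pearson's correlation of log2(RPM + 1) over the 9 libraries, given as a description. The libraries of a genotype tend to share their level, so the 9 points are not independent. The correlation also used the sense values that chose the 4 entries, so nothing is read from the size of r. For cel-piR-14240 the most alike were cel-piR-862 (r = 0.98), cel-piR-15149 (r = 0.92) and cel-piR-4006 (r = 0.91). Of these, cel-piR-862 was at 4.12 ± 0.791 RPM in PAZ-deletion, 0.657 ± 0.195 in RNase-dead and 0.389 ± 0.415 in wild type (mean ± SD, n = 3 each), with 27 reads over all libraries. For cel-piR-1592 the most alike was cel-piR-14240 itself (r = 0.87), followed by cel-piR-862 (r = 0.84) and cel-piR-8350 (r = 0.82). The closest to cel-piR-12706 were cel-piR-12238 (r = 0.80), cel-piR-10204 (r = 0.79) and cel-piR-4006 (r = 0.77). The closest to cel-piR-156 were cel-piR-3945 (r = 0.91), cel-piR-5675 (r = 0.81) and cel-piR-5843 (r = 0.81). These 6 had 10 to 26 reads in all, while cel-piR-862 had 27 and cel-piR-8350 had 33. At such counts a correlation is no finding. Among the 4 themselves r ran between 0.06, for cel-piR-12706 with cel-piR-156, and 0.87.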

How the data were processed

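Per the file headers, the deposited values were raw counts of sense and antisense reads on the entries of piRNAdb release 1.7.6 and raw counts per genome segment, for 9 libraries. Reads went through cutadapt 3.7 and FastQC 0.12.0, per the submitters' processing notes. How reads were aligned, to which build, and what was done with several matches is not given in the sources used here, so near-identical entries can share reads and the level of 1 entry is uncertain to that extent. Per the labels' protocols, RNA was treated with acid pyrophosphatase, which lets 5′ triphosphate siRNAs into the genome-mapped total. Library sizes were genome-mapped reads. edgeR 4.0.16 (quasi-likelihood, R 4.3.3) was fitted to all 9 libraries at once, separately for sense and antisense counts, and calls were made at 0.05 after Benjamini-Hochberg adjustment. The SE of a log2 fold change is its size over the root of F, so it rests on a spread largely pooled over entries. DESeq2 1.42.0 was an alternative. The edgeR fit was also run on simulated counts in which most entries were left unchanged, and nothing is concluded from it here. SDs and ranks were computed in Python 3.11.15. Members, lists and tests were chosen with earlier results of these data known. The summed share was to be tested for RNase-dead, but no p is given for a score over chosen members. Named beside the 4 members were the 3 dominant entries, the next entry above and below each in wild-type level, and the 3 most alike. Depth and the floor of 3 reads cover counting error only, since the labels name no molecular identifiers.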

Additional observations from a re-analysis of the deposited data

How the results depend on the processing

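No member changed direction in either PAZ-deletion comparison under any alternative run, but these comparisons chose the entries, so nothing is read from that. In RNase-dead against wild type cel-piR-156 turned to -0.039 with TMM factors, -0.14 with sense piRNA library sizes and -0.18 with DESeq2 median-ratio factors, and none of these was called. The count of sense entries called there, 23, was 13 with TMM factors (10 higher and 3 lower), 7 without the ribosomal segment, 4 with DESeq2 median-ratio factors, 5 without the count filter and 2 to 46 with 1 library left out. The count for PAZ-deletion against wild type, 14 higher and 205 lower, was 28 and 84 with DESeq2 median-ratio factors (112 in all), 78 and 75 with sense piRNA library sizes, 140 in all without the filter, and 133 to 249 with 1 library left out, lowest without PAZ-deletion replicate 2. Against RNase-dead, 11 higher and 296 lower became 94 and 80 (174 in all) with sense piRNA library sizes, 36 and 97 (133 in all) with DESeq2 median-ratio factors and 202 in all without the filter, and 194 to 337 with 1 library left out, again lowest without PAZ-deletion replicate 2. Antisense calls for PAZ-deletion against wild type were 22, with 11 without the filter and 13 to 21 with 1 library left out, lowest without PAZ-deletion replicate 2 or 3. Those for PAZ-deletion against RNase-dead were 26, with 13 without the filter and 14 to 30 with 1 library left out, 14 without PAZ-deletion replicate 2 and 15 without replicate 3. For RNase-dead against wild type the count was 1, with 0 to 1 when 1 library was left out (0 without wild type replicate 2) and 0 with DESeq2, where 2 entries, both lower, had an unadjusted p under 0.05. The log2 difference of the summed share of the 4 entries was 2.66 for PAZ-deletion against wild type, 1.35 in RPM, 2.01 without cel-piR-14240, 3.39 without cel-piR-12706 and 2.47 to 2.78 with 1 library left out. For PAZ-deletion against RNase-dead it was 3.29, 1.55 in RPM, 2.68 without cel-piR-14240, 3.60 without cel-piR-12706, 3.74 without cel-piR-156 and 3.10 to 3.41 with 1 library left out. For RNase-dead against wild type it was -0.63, -0.20 in RPM, -0.21 without cel-piR-12706 and -0.81 to -0.47 with 1 library left out. The cause of these moves was not tested.

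The labels do not tie same-numbered libraries to each other, and the replicate number was not taken as a pairing. Their deviations from the group means correlated at 0.06 to 0.12 between RNase-dead and wild type, 0.00 to 0.04 between PAZ-deletion and wild type and -0.08 to -0.05 between PAZ-deletion and RNase-dead. Each RNase-dead library correlated best with its own number in wild type (3 of 3), which is a hint from the data for these groups only. The same held for 1 of 3 libraries between PAZ-deletion and wild type and 0 of 3 between PAZ-deletion and RNase-dead. With the replicate number as a block edgeR called 20 entries in RNase-dead against wild type, 169 in PAZ-deletion against wild type and 257 in PAZ-deletion against RNase-dead, and cel-piR-12706 stood at -0.63 (edgeR FDR 0.538) in the first.

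Depth limits cel-piR-14240 most, since its 7, 1 and 8 wild-type reads are near the floor of 3.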
